A study of Mus musculus with 16 samples.

Results

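The HOX genes were examined in mouse clear cell sarcoma (mCCS), a soft tissue tumour driven by EWSR1::ATF1 (EA1), the fusion of the EWSR1 and ATF1 genes. They were taken as every protein-coding gene of GENCODE vM21 named Hoxa, Hoxb, Hoxc or Hoxd and a number, which gave 39 of 21938 protein-coding genes. Of these 39 genes, 11 lie in the Hoxa cluster, 10 in Hoxb, 9 in Hoxc and 9 in Hoxd. Tumours had been profiled by chromatin immunoprecipitation and sequencing (ChIP-seq). The antibodies were to the V5 tag of the fusion, to phosphorylated RNA polymerase II (RNAPOL2) and to H3K27ac. H3K27ac is the acetylated histone mark of active regulatory elements. The labels give 4 samples for each antibody and 4 of input chromatin. All 16 samples, inputs included, carry the genotype EWSR1::ATF1 and the tissue Tumor, so no group without the fusion was available for comparison, and the labels give no age. The human fusion was expressed with its V5 tag from Rosa26 in mice of a mixed background that includes C57Bl/6, after a loxP-flanked stop had been removed by Cre protein injected into a hindlimb at 4 weeks of age. Tumours can therefore start only from cells that took up Cre there, of a type not identified here. Whether the 4 samples of an antibody came from 4 animals is not stated.

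HOX genes encode homeodomain transcription factors that set position along the body and limb axes. They lie in 4 clusters on 4 chromosomes, and genes at the same place in different clusters form 13 paralog groups. Groups 1 to 4 are called anterior, 5 to 8 central and 9 to 13 posterior, because genes of higher number are used further towards the tail of the embryo and further out along the limb. Cells of adult connective tissue keep much of the HOX pattern of the body site from which they come. Inactive HOX genes are held by Polycomb proteins, and active ones carry acetylated histones.

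The values were positions and scores of peaks in 3 lists, 1 for each antibody, with 10665 V5 peaks, 20375 RNAPOL2 peaks and 27552 H3K27ac peaks. A gene was said to have a promoter peak where a peak overlapped by at least 1 bp the window within 3 kb of any of its transcription start sites (TSSs). Scores have no stated scale, so each was read only against other scores of the same list, by its rank from the highest. Each list is 1 set of calls for its antibody and holds no value per tumour, so the spread between tumours could not be given and no difference below was tested. The depth of each sample is not recorded in the lists either, so the lack of a peak says only that none was called. The tumours were profiled as bulk tissue, where a mark in few cells and a weak mark in every cell cannot be told apart.

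V5 peaks lay at the promoters of 8 of the 39 HOX genes, which was 20.5%, beside 16.6% of all protein-coding genes. The 8 genes were Hoxa7, Hoxa9, Hoxa10, Hoxc5, Hoxc6, Hoxc9, Hoxc10 and Hoxc11. RNAPOL2 promoter peaks were found at 19 genes (48.7%, background 53.5%) and H3K27ac promoter peaks also at 19 genes (48.7%, background 58.6%). Both of these marks were present at 17 genes (43.6%, background 52.2%), and peaks of all 3 lists at 8 genes (20.5%, background 15.9%). The remaining 18 genes (46.2%, background 39.9%) had no promoter peak in any list. With every peak of the lists counted, each of these shares was thus within about 10 percentage points of the share over all protein-coding genes. The gap depended on the setting. In the upper 50% of each list by score, RNAPOL2 was left at 8 HOX genes (20.5%) beside 46.9% of all coding genes, H3K27ac at 15 (38.5%) beside 50.1%, both marks at 7 (17.9%) beside 45%, and V5 at 4 (10.3%) beside 7.3%. With TSSs of coding transcripts alone, V5 was at 6 HOX genes (15.4%) beside 15.5% of all coding genes. With TSSs of principal transcripts (the annotation's main isoforms) alone, chosen after the data had been seen, V5 was at 5 (12.8%) beside 14.7%. The 8 genes with V5 peaks rested on 9 distinct V5 peaks, and the 19 genes with RNAPOL2 or H3K27ac on 22 and 21 distinct peaks.

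The marked genes were spread unevenly over the 4 clusters. Both RNAPOL2 and H3K27ac were present at 7 of 11 Hoxa genes (Hoxa3, Hoxa4, Hoxa7, Hoxa9, Hoxa10 and Hoxa11 among them) and at 5 of 9 Hoxc genes (Hoxc5, Hoxc6, Hoxc9, Hoxc10 and Hoxc11). In Hoxd they were present at 4 of 9 genes (Hoxd3, Hoxd4, Hoxd8 and Hoxd9), and in Hoxb at Hoxb4, 1 of 10, beside 52.2% of all protein-coding genes. In the upper 50% of each list by score the counts became 3 in Hoxa, 3 in Hoxc, 1 in Hoxd and 0 in Hoxb. V5 promoter peaks were found in Hoxa (3 genes) and Hoxc (5 genes), whereas Hoxb and Hoxd had 0 V5 peaks. The deposited V5 list is shorter than the set of binding sites that the study describes, so the lack of V5 in a cluster holds for this list alone. The grid of scores by paralog group and cluster shows this layout gene by gene.

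**Figure D1:**
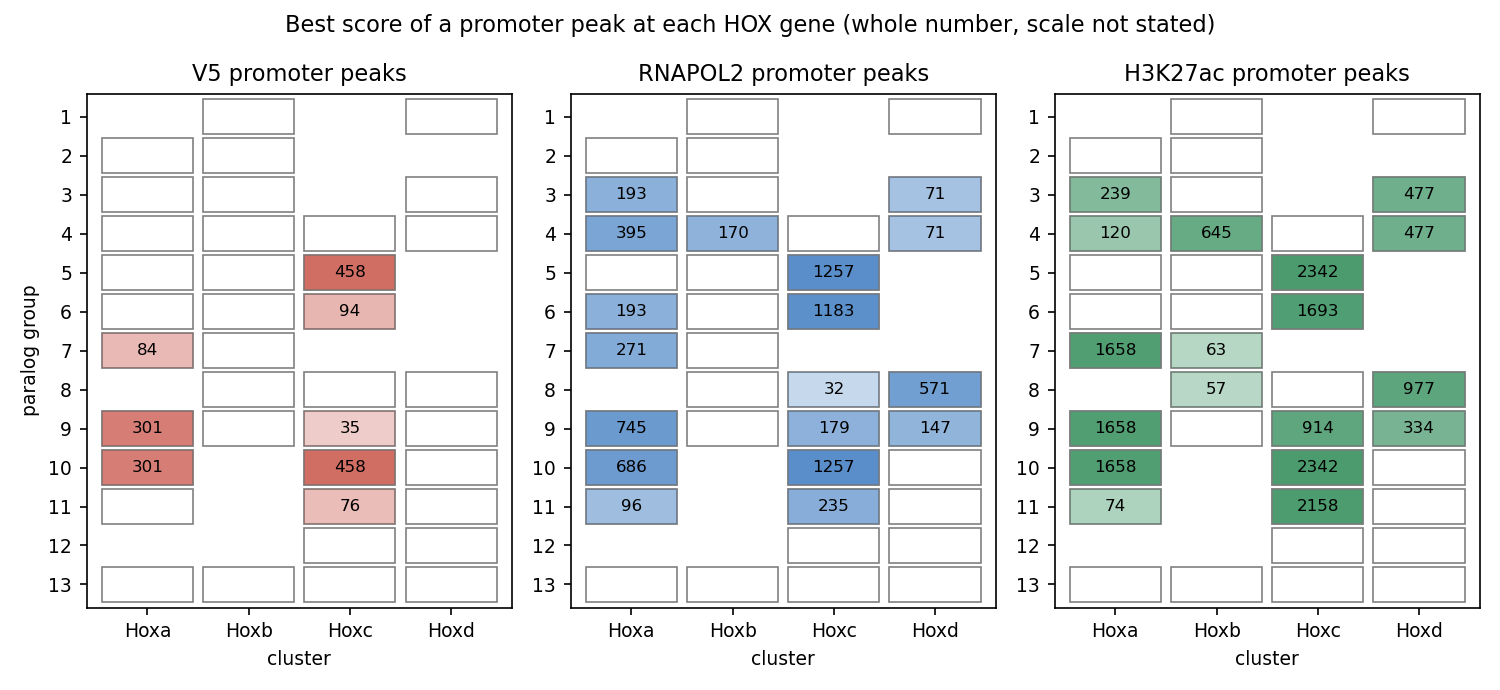
Best score of a promoter peak for each HOX gene, with paralog groups 1 to 13 from top to bottom and the 4 clusters from left to right, for V5, RNAPOL2 and H3K27ac. A printed number is the score (scale not stated), a darker fill is a higher percentile within that list, an empty box is a gene with no promoter peak, and blank space is a gene that does not exist or is not shown; V5 fills boxes in Hoxa and Hoxc, and groups 2, 12 and 13 are empty in every panel.

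Along the clusters, both marks were present at 6 of 12 anterior, 4 of 11 central and 7 of 16 posterior genes, beside 52.2% of all protein-coding genes. In the upper 50% of each list by score these became 0 anterior, 4 central and 3 posterior genes, so the order of the classes was not stable. V5 promoter peaks were present at 0 anterior, 3 central and 5 posterior genes, beside 16.6% of all protein-coding genes. With TSSs of principal transcripts alone, V5 was left at Hoxa9, Hoxa10, Hoxc9, Hoxc10 and Hoxc11, which are all posterior. Paralog group 9 had both marks at 3 of 4 genes (Hoxa9, Hoxc9 and Hoxd9), group 10 at 2 of 3 (Hoxa10 and Hoxc10) and group 11 at 2 of 3 (Hoxa11 and Hoxc11). The most posterior groups were unmarked. Both genes of group 12 and all 4 genes of group 13, which includes Hoxa13 and Hoxd13, regulators of the hand and foot plate, had no promoter peak in any list. At the other end, Hoxa2 and Hoxb2 of group 2, genes of the hindbrain and second pharyngeal arch, also had none. Group 4 had both marks at 3 of 4 genes (Hoxa4, Hoxb4 and Hoxd4).

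Within Hoxa and Hoxc, most peaks of the 3 lists lay together in long stretches rather than at single promoters. Peaks no more than 5 kb apart were joined into domains. In Hoxa the largest domain was chr6:52211591-52246200 (mm10), 34.6 kb with 4 V5, 9 RNAPOL2 and 6 H3K27ac peaks, and it held TSSs of Hoxa3, Hoxa7, Hoxa9, Hoxa10 and Hoxa11. Peaks covered 40.8% of this domain for V5, 38% for RNAPOL2 and 62.6% for H3K27ac. The other Hoxa domains were short, at 1.36, 0.56 and 1.19 kb, the last of them at Hoxa4. In Hoxc the largest domain was chr15:102942771-102987610, 44.8 kb with 6 V5, 9 RNAPOL2 and 8 H3K27ac peaks, and it held TSSs of Hoxc5, Hoxc9, Hoxc10 and Hoxc11. Here the covered shares were 32.6%, 34.7% and 59%. A further Hoxc domain of 9.06 kb surrounded upstream TSSs of Hoxc6, and another of 1.14 kb held RNAPOL2 alone at the coding TSS of Hoxc5. The Hoxd domains were each under 2 kb, at 1.6, 1.79 and 1.38 kb, and sat on TSSs of Hoxd9, of Hoxd8 and of Hoxd3 with Hoxd4. The Hoxb domains were 4.26 kb near Hoxb7 and 4.82 kb near Hoxb4.

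**Figure D2:**
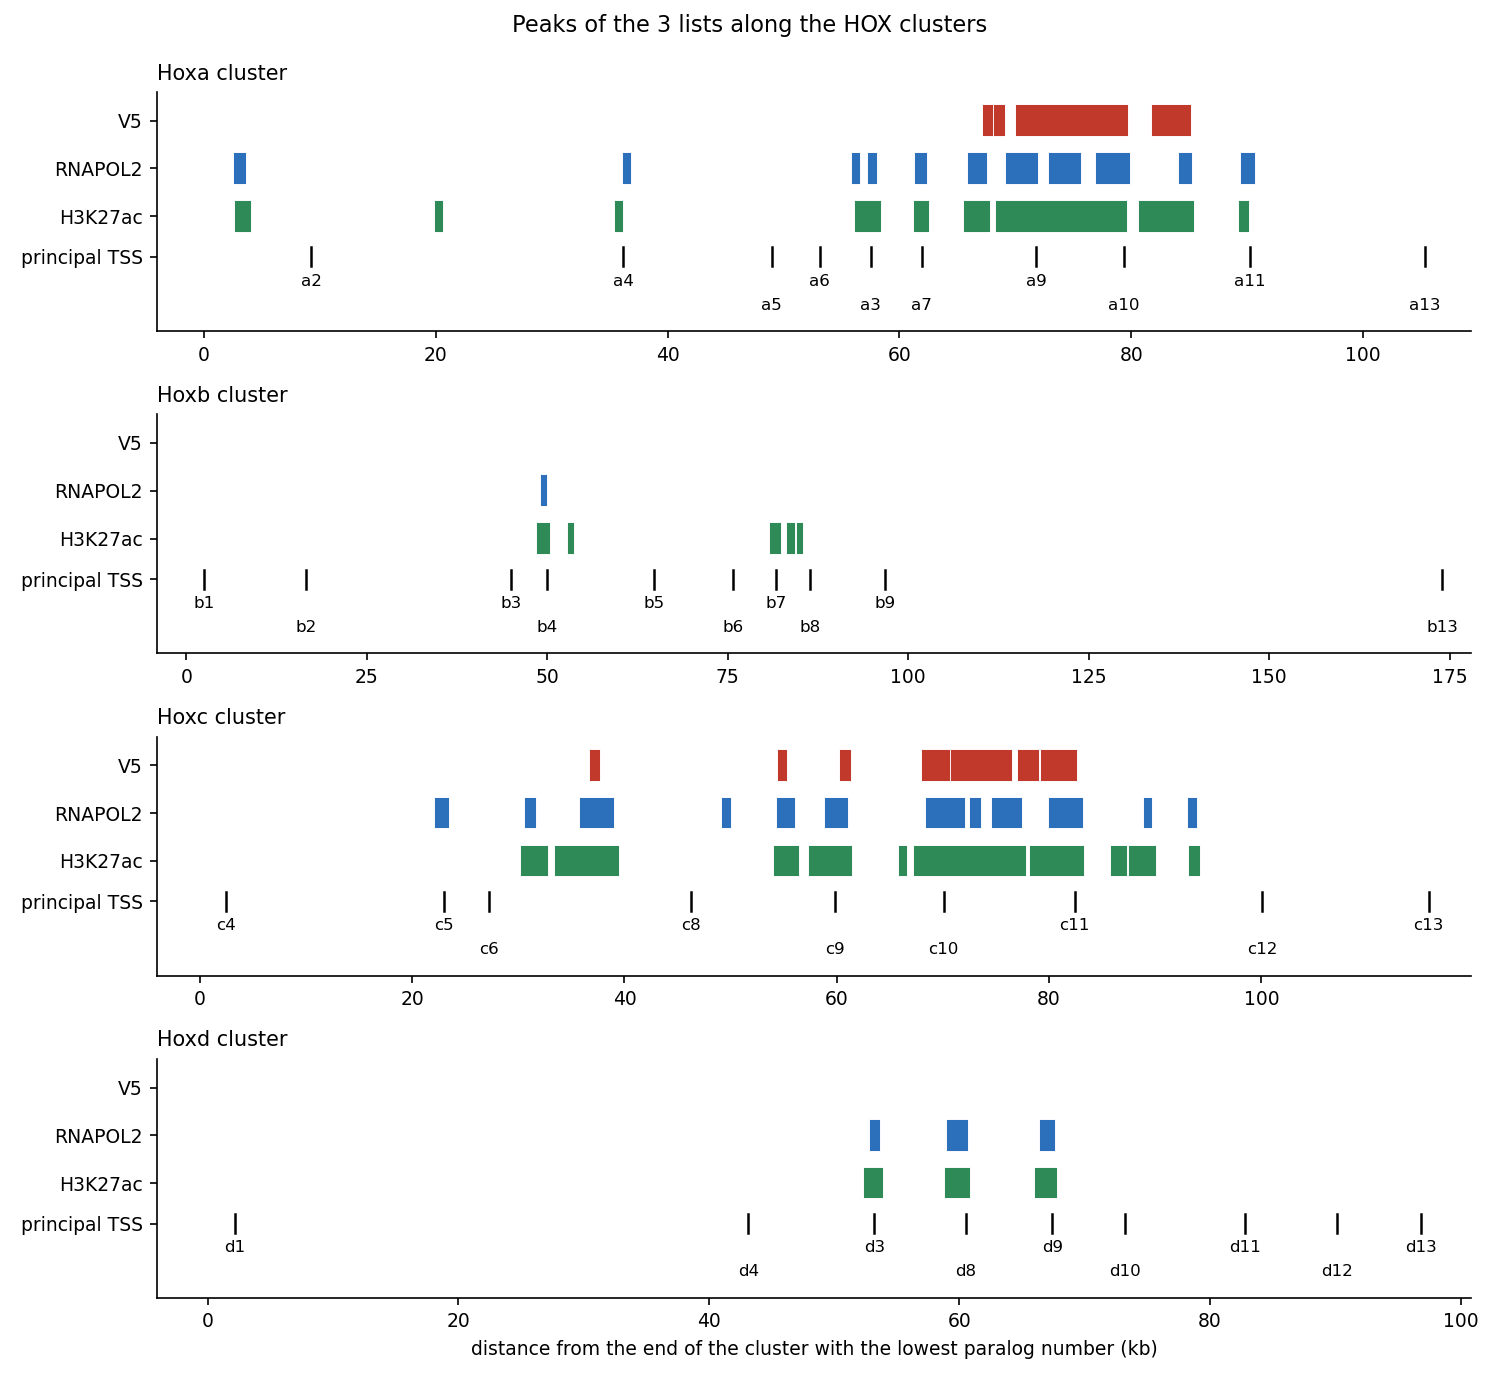
Peaks of V5, RNAPOL2 and H3K27ac along the 4 clusters, to scale within each panel, in kb from the end of the cluster that holds the lowest paralog number. Coloured blocks are peaks and ticks are TSSs of principal transcripts (the annotation's main isoform, the most upstream where there are several) of the genes shown; V5 blocks lie in the posterior part of Hoxa and the middle and posterior part of Hoxc, and the panels for Hoxb and Hoxd have none. The tick of Hoxa3 lies between Hoxa6 and Hoxa7 because its principal transcript starts there.

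The clusters differed several-fold in the share of bases under peaks. In the Hoxa cluster (chr6:52155590-52260880) V5 peaks covered 13.4%, RNAPOL2 13.8% and H3K27ac 22.8%. In Hoxc (chr15:102921103-103036852) the shares were 13.2%, 17.7% and 29.9%. The Hoxd cluster (chr2:74668310-74765142) was covered to 0% by V5, 3.25% by RNAPOL2 and 4.93% by H3K27ac. In Hoxb (chr11:96194316-96368256) V5 again covered 0%, RNAPOL2 0.339% and H3K27ac 2.64%. Over all chromosomes the lists covered 0.332%, 1.13% and 1.76%. In the upper 50% of each list by score, RNAPOL2 coverage was 10.1% in Hoxa and 6.34% in Hoxc, so the order of these clusters turned, and 1 V5 peak was left in Hoxa and 2 in Hoxc. With all peaks counted, RNAPOL2 coverage of Hoxb was below that of the genome, while Hoxa and Hoxc were above it in every list. The longest stretch without any peak was 88.7 kb in Hoxb, 52.5 kb in Hoxd, 22.2 kb in Hoxc and 19.2 kb in Hoxa.

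**Figure D3:**
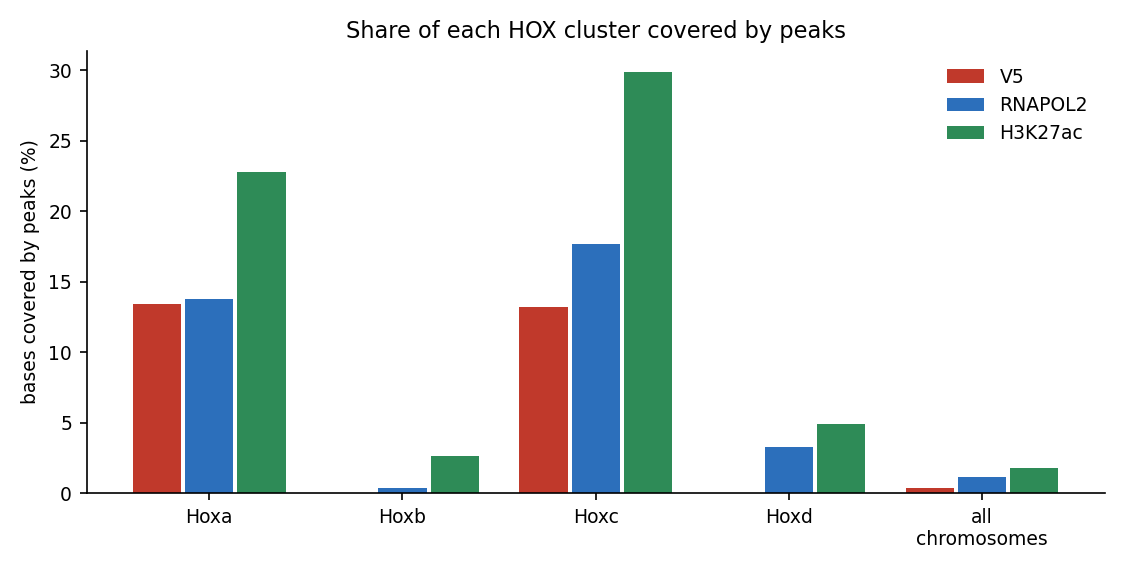
Share of bases (%) under V5, RNAPOL2 and H3K27ac peaks in each HOX cluster and over all chromosomes, drawn as bars from 0. H3K27ac reaches 29.9% in Hoxc and 22.8% in Hoxa against 1.76% over all chromosomes, and V5 bars are absent in Hoxb and Hoxd.

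Hoxa9 and Hoxa10, posterior genes used in limb and reproductive tract patterning and in blood progenitors, lay under the widest V5 peak of the clusters. This peak, chr6:52225701-52235200, was 9500 bp wide, which ranked 3 of 10665 V5 peaks by width, and its score of 301 ranked 4108. It covered TSSs of Hoxa9, of Hoxa10 and of the microRNA gene Mir196b. The H3K27ac peak over the same stretch, chr6:52223961-52235100, was 11140 bp wide and scored 1658, rank 2889 of 27552 by score and 96 by width. RNAPOL2 promoter peaks reached a score of 745 at Hoxa9, rank 6160 of 20375 and the highest in Hoxa, and 686 at Hoxa10, where the peak that covered a TSS scored 628. A second V5 peak of 3230 bp, chr6:52237451-52240680 with a score of 218, lay within Hoxa10. Hoxa7, a central gene of the trunk, had its nearest V5 peak 1037 bp from a TSS, with a best V5 score of 84, and it had RNAPOL2 at 271. Its best H3K27ac score in the window, 1658, belonged to the Hoxa9 and Hoxa10 peak, and the H3K27ac peaks that covered Hoxa7 TSSs scored 397 and 82.

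Hoxc10 and Hoxc11, posterior genes of the lumbosacral trunk and the hindlimb, held the highest H3K27ac scores of the HOX genes, with Hoxc5, whose upstream start shares the Hoxc10 peak. H3K27ac scored 2342 at Hoxc10 (chr15:102959091-102969520, 10430 bp, rank 1584) and 2158 at Hoxc11 (chr15:102953681-102958580). The V5 peak over the Hoxc10 TSS, chr15:102966271-102968700, scored 458, the highest V5 score in the clusters, at rank 2807. A V5 peak of 5570 bp, chr15:102960431-102966000 with a score of 313, lay upstream of it and covered no exon, and ranked 14 by width. The RNAPOL2 peak chr15:102964861-102968320 at Hoxc10 scored 1257, the highest of any HOX gene, at rank 3705. At Hoxc11 the V5 peak chr15:102954301-102957480 covered the TSS with a score of 76, and RNAPOL2 scored 235. Hoxc9, a thoracic and abdominal gene, had the lowest V5 score, 35 at rank 10564 of 10665, beside 179 for RNAPOL2 and 914 for H3K27ac.

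Calls at Hoxc5 and Hoxc6 rested on upstream starts rather than on their coding transcripts. The upstream TSS of Hoxc5, at chr15:102967443, starts a processed transcript and lies 647 bp from the Hoxc10 TSS, inside the Hoxc10 peaks. The TSS of its coding transcript lies 46.4 kb away, at chr15:103013815, and was covered by a RNAPOL2 peak with a score of 80 and by no other list. Hoxc6 had its V5 peak (94), RNAPOL2 peak (1183) and H3K27ac peak (1693) at noncoding starts, and its coding TSS, 11.3 kb from the most upstream of them, had no peak within 3 kb. When TSSs of principal transcripts alone were used, an alternative added after the data had been seen, V5 promoter peaks remained at 5 genes (Hoxa9, Hoxa10, Hoxc9, Hoxc10 and Hoxc11) which was 12.8% beside 14.7% of all coding genes. Both marks then remained at 14 genes, 35.9% beside 50.4%.

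The anterior genes with both marks had no V5 promoter peak. Hoxa4 scored 395 for RNAPOL2 and 120 for H3K27ac, and Hoxa3, a gene of the pharyngeal arches and neck, scored 193 and 239. Neither peak of Hoxa4 covered its TSS, and the RNAPOL2 peak that covered a TSS of Hoxa3 scored 167. The marks of Hoxa3 lay at its principal TSS, 4.39 kb from that of Hoxa7, and at a noncoding start 221 bp from it, and its other 2 TSSs, 28.2 kb or more away, had no peak. Hoxd3 and Hoxd4 shared their peaks (RNAPOL2 71, H3K27ac 477), because an upstream TSS of Hoxd4 lies 2 bp from that of Hoxd3. The remaining Hoxd4 TSSs, 10 kb or more away, had no peak. Hoxb4 was the single Hoxb gene with both marks, at 170 for RNAPOL2 and 645 for H3K27ac.

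In the rest of Hoxd, Hoxd8 had the highest scores, 571 for RNAPOL2 and 977 for H3K27ac, followed by Hoxd9 at 147 and 334. Hoxd10, Hoxd11, Hoxd12 and Hoxd13, the genes that pattern the forearm, shank and digits, had no promoter peak, and the nearest H3K27ac peak to a TSS of Hoxd10 was 5497 bp away. Hoxa11, their Hoxa counterpart in the zeugopod (the forearm or shank), had low scores of 96 for RNAPOL2 and 74 for H3K27ac. Hoxb7 and Hoxb8, trunk genes, had H3K27ac alone at scores of 63 and 57, near the foot of that list. Hoxa6 and Hoxc8 had RNAPOL2 alone and only at the edge of the window, at 2869 and 2997 bp from a TSS. Just outside the window lay H3K27ac at Hoxa6 (3099 bp), both marks at Hoxb3 (4326 and 3796 bp) and RNAPOL2 at Hoxc4 (4314 bp).

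The 18 genes without a promoter peak were Hoxa2, Hoxa5 and Hoxa13, 7 Hoxb genes (Hoxb1, Hoxb2, Hoxb3, Hoxb5, Hoxb6, Hoxb9 and Hoxb13), Hoxc4, Hoxc12 and Hoxc13, and Hoxd1, Hoxd10, Hoxd11, Hoxd12 and Hoxd13. Their nearest H3K27ac peak lay between 3796 bp (Hoxb3) and 88675 bp (Hoxb13) from a TSS. Hoxa5, a gene of lung and cervicothoracic patterning, sat in a gap of Hoxa between marked neighbours, with its nearest RNAPOL2 peak 7004 bp and its nearest H3K27ac peak 7234 bp away. Hoxd1, at the anterior end of Hoxd, was 50310 bp from H3K27ac, and Hoxb1, its Hoxb paralog in the hindbrain, 46222 bp.

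Scores at HOX promoters were compared with those of all protein-coding genes that had a promoter peak, as medians of the best score per gene. For V5 the median was 198 over 8 HOX genes (35 to 458) and 196 over 3640 genes. For RNAPOL2 it was 193 over 19 HOX genes (32 to 1257) and 912 over 11738 genes. For H3K27ac it was 645 over 19 HOX genes (57 to 2342) and 863 over 12846 genes. Genes that share a peak count it more than once here. With each best peak counted once, the medians were 89 over 6 HOX peaks and 194 over 3112 for V5, 214 over 16 and 881 over 10066 for RNAPOL2, and 477 over 15 and 807 over 11086 for H3K27ac. Counted by peak, the HOX median was thus the lower one in every list. The 4 HOX genes with V5 in the upper 50% of its list were Hoxa9, Hoxa10, Hoxc5 and Hoxc10.

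The 11 V5 peaks in the clusters, 4 in Hoxa and 7 in Hoxc, were wider and scored lower than the V5 list as a whole. Their median width was 1830 bp beside 710 bp for all V5 peaks, and their median score 84 beside 230. Of the 11, 4 were at least 3 kb wide, as were 75 of all 10665 V5 peaks (0.703%). At 5 kb or wider there were 2 among 17 in the whole list. Of the 11 peaks, 10 overlapped both RNAPOL2 and H3K27ac peaks and 1 overlapped one of them, beside 41.6% and 32.2% of all V5 peaks. Their median GC content was 53.5% beside 48% for all V5 peaks.

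**Figure D4:**
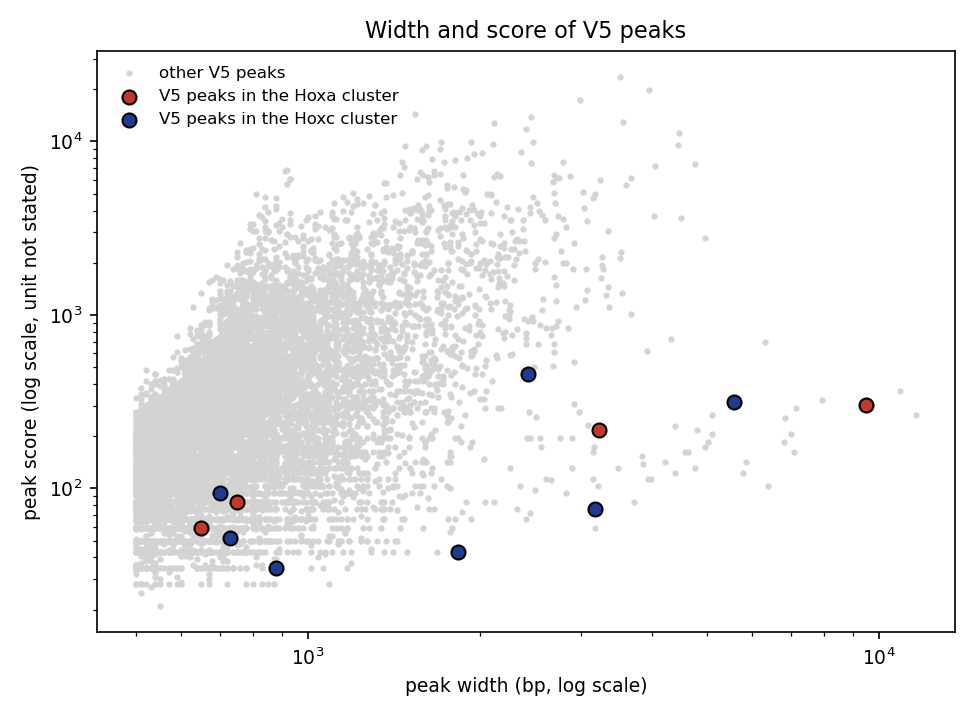
Width (bp, log scale) against score (log scale, unit not stated) for every V5 peak, with 1 point per peak, grey for peaks elsewhere and coloured for those in the Hoxa and Hoxc clusters. Of the coloured points, 4 lie at 3 kb or wider with scores from 76 to 313, to the right of nearly all grey points of like score.

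Motifs of ATF and AP1 factors were less dense in these V5 peaks than in the V5 list as a whole. The HOX peaks were also wider (median 1830 bp beside 710 bp), and the effect of width on these densities was not tested. The fusion keeps the DNA-binding domain of ATF1, which recognises TGACGTCA, and the AP1 factors recognise TGAGTCA. Both strands of GRCm38 were searched for these and for variants, meaning any other sequence of the form TGANNTCA, which cannot share its first base and strand with TGAGTCA but may overlap it. Per kb of V5 peak, TGACGTCA occurred 0.034 times in the HOX peaks (1 site) and 0.107 times in all V5 peaks. For TGAGTCA the densities were 0.102 (3 sites) and 0.379, and for variants 0.17 (5 sites) and 0.706. Of the 11 HOX peaks, 5 held at least 1 such motif, beside 59% of all V5 peaks, and the 9 sites are too few for a density to be precise. The single TGACGTCA lay at chr15:102966632-102966639, 164 bp upstream of the Hoxc10 TSS, in the peak with the highest V5 score. Of the other matches, 3 are shown with 20 bases on either side, on the plus strand of GRCm38 with the motif in capitals, because they are the ones that lie outside exons and away from a TSS. The Hoxa10 site, chr6:52237996-52238042, is in an intron of Hoxa10. The Hoxc11 site, chr15:102956023-102956070, is in the intron of Hoxc11. The intergenic site, chr15:102958892-102958938, lies between Hoxc11 and Hoxc10.
Hoxa10 intron, TGAGTCA read on the minus strand: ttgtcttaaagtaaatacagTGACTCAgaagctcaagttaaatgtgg
Hoxc11 intron, variant: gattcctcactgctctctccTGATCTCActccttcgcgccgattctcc
Hoxc11 to Hoxc10, TGAGTCA read on the minus strand: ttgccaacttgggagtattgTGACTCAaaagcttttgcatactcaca

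RefSeq promoter windows of GRCm38.p6, from 250 bases before to 50 after the start, were at hand for 22 of the 39 genes (24 windows). Hoxc4 was the only Hoxc gene among them, so Hoxc5, Hoxc6, Hoxc9, Hoxc10 and Hoxc11 had no window. At least 1 motif was found in 2 of the 24 windows (8.33%), beside 18.5% of 32851 windows of the same length. TGACGTCA was found in 0, beside 1.79%. The TGACGTCA 164 bp upstream of the Hoxc10 TSS is not in this count, because that gene had no window. In windows of 1 kb centred on the TSS of each of the 39 genes, 8 (20.5%) held at least 1 motif, beside 37.2% of all protein-coding genes. The median GC content was 57.7% for HOX windows and 52.7% for all, and the median ratio of observed to expected CpG was 0.626 and 0.384. Among HOX windows, the 11 of genes with both marks had a median GC content of 54.3% and the 13 of the other genes 61.7%, with CpG ratios of 0.593 and 0.805. This split is by gene, from peaks within 3 kb of any TSS, and not by peaks over the window itself. Of the 11 windows, those of Hoxa7 and Hoxd4 overlapped no peak. That of Hoxa11 overlapped RNAPOL2 alone, and those of Hoxb4 and the more upstream Hoxa10 start overlapped H3K27ac alone. The 3 promoters printed below show a range of CpG content. Each is given as the 250 bases before the start on the minus strand, with every CG in capitals. Hoxa9 (chr6:52227371-52227620) and Hoxa10 (chr6:52234940-52235189) were overlapped by peaks of all 3 lists, in part by RNAPOL2 at Hoxa9 and by H3K27ac at Hoxa10, and held 3 and 20 CG. Hoxa13 (chr6:52260881-52261130) was overlapped by none and held 35. The 3 sequences therefore differ in CG number both within the marked pair and between that pair and the unmarked gene.
Hoxa9: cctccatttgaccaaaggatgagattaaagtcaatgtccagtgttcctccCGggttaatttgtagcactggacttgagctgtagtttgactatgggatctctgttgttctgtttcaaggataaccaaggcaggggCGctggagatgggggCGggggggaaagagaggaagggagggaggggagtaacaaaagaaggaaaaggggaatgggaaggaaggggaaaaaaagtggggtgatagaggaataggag
Hoxa10: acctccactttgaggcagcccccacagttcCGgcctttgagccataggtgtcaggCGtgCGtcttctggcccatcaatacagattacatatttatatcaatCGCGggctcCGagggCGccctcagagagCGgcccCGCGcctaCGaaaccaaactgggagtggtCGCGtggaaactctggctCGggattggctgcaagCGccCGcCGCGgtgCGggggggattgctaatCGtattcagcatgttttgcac
Hoxa13: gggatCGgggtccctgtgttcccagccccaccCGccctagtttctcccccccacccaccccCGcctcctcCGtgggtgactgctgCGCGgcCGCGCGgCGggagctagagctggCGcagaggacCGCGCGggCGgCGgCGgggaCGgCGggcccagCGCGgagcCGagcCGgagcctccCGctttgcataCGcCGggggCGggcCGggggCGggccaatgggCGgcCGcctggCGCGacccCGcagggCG

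The HOX clusters also hold microRNA genes of the miR-10 and miR-196 families, which repress HOX mRNAs among other targets. The hairpin of Mir196b (chr6:52230081-52230165), between the Hoxa10 and Hoxa9 coding starts, lay under peaks of all 3 lists. The hairpin of Mir196a-2 in Hoxc lay under none, at 2157 bp from a V5 peak, 2437 bp from a RNAPOL2 peak and 2047 bp from a H3K27ac peak. Mir196a-1 and Mir10b lay 17726 and 13400 bp from the nearest H3K27ac peak, and Mir10a 767 bp. Mir615 in Hoxc lay 290 bp from a RNAPOL2 peak. Mature sequences from RefSeq are shown with the seed, bases 2 to 8, in capitals, because the families share seeds across clusters that differed in their peaks. miR-196a and miR-196b share the seed AGGUAGU, and miR-10a and miR-10b share ACCCUGU.
miR-196b-5p (Hoxa): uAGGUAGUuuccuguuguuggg
miR-196a-5p (Hoxb and Hoxc): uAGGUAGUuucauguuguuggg
miR-10a-5p (Hoxb): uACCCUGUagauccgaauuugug
miR-10b-5p (Hoxd): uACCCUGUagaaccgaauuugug

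Of 43 noncoding genes in the clusters, 2 had a V5 promoter peak, 24 RNAPOL2, 25 H3K27ac and 17 no peak. In percent these were 4.65, 55.8, 58.1 and 39.5, beside 5.55, 13.1, 16.4 and 81.2 for 25716 noncoding genes of the same types on all chromosomes. Many of the 43 lie side by side and share peaks, so the 24 genes with RNAPOL2 rested on 12 distinct peaks and the 25 with H3K27ac on 13. Hotair, an RNA of the Hoxc cluster transcribed from the opposite strand, had RNAPOL2 at a score of 111 and H3K27ac at 184. Hoxa11os, an antisense RNA, shared the peaks of Hoxa11. Haglr in Hoxd and Hoxb5os and Hoxb3os in Hoxb had none. All 9 noncoding genes of Hoxb but 1 lacked peaks, and all 7 of Hoxc had RNAPOL2. A peak has no strand, so it cannot be given to a HOX gene rather than to an antisense neighbour that starts in the same window.

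Peaks were absent next to Hoxa, Hoxb and Hoxc and present next to Hoxd. Within 100 kb of either end, Hoxa, Hoxb and Hoxc had 0 peaks of any list, and Hoxd had 1 RNAPOL2 and 1 H3K27ac peak on each side. Over all chromosomes there were 3.91 V5, 7.48 RNAPOL2 and 10.1 H3K27ac peaks per Mb. The nearest V5 peak outside Hoxa was 488 kb away on the anterior side and 361 kb on the posterior side. For Hoxc it was 403 kb on the posterior side, with 0 V5 peaks in the 1 Mb on the anterior side. For Hoxb the distances were 461 and 118 kb and for Hoxd 444 and 263 kb. Evx1 and Evx2, the homeobox genes next to Hoxa13 and Hoxd13, had no promoter peak, like the group 13 genes beside them.

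**Figure D5:**
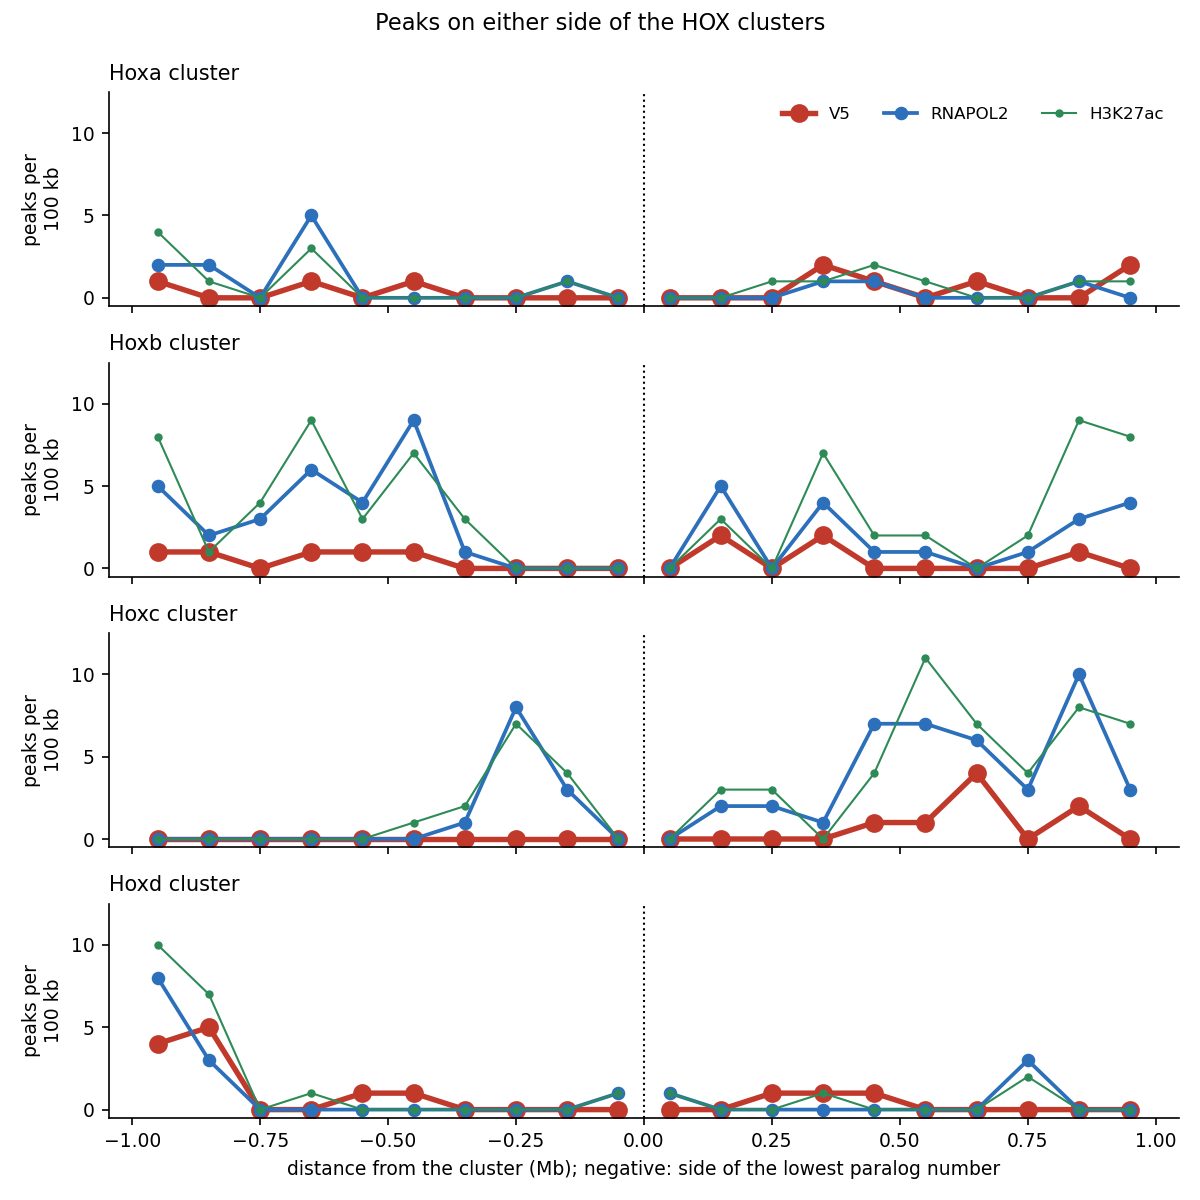
Number of V5, RNAPOL2 and H3K27ac peaks in each 100-kb bin over the 1 Mb on either side of a cluster, which itself is left out at 0. Negative distances (Mb) lead away from the lowest paralog number and positive ones from the highest; the innermost bins hold 0 peaks for Hoxa, Hoxb and Hoxc.

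The other genes of the pathway were taken as lists. They are read beside the shares over all protein-coding genes, 52.2% with both marks, 16.6% with V5 and 39.9% with no peak. All 20 chromatin regulators of HOX clusters, from the Trithorax and Polycomb groups with Ctcf, had both RNAPOL2 and H3K27ac, and 7 (35%) had V5 (Kmt2a, Kmt2b, Ring1, Bmi1, Cbx8 and Ctcf among them), with V5 scores from 50 at Bmi1 to 784 at Ctcf, the insulator protein. Of 9 TALE homeodomain cofactors, which bind DNA together with HOX proteins, 7 (77.8%) had both marks and 3 (33.3%) had V5 (Meis2 at 259 and Pknox1 at 241 among them). Pbx4 was the cofactor without a peak. Of 63 other homeobox genes, 16 (25.4%) had both marks, 5 (7.94%) had V5 (Dlx4, Irx3, Irx5, Pitx1 and Prrx1) and 39 (61.9%) had no peak, so the HOX genes (43.6%, 20.5% and 46.2%) lay between this list and all coding genes for both marks and for no peak. None of 8 ParaHox and even-skipped genes had a peak, Cdx1, Cdx2 and Cdx4 among them, which are upstream activators of HOX genes in the embryo.

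Of 18 limb patterning genes, 11 (61.1%, beside 52.2% of all coding genes) had both marks and 5 (27.8%, beside 16.6%) had V5 (Pitx1, Gli3, Shox2, Prrx1 and Twist1). Pitx1, which specifies the hindlimb, scored 207 for V5, 1743 for RNAPOL2 and 1608 for H3K27ac. Prrx1, a gene of limb mesenchyme, scored 218, 642 and 3200. Shox2, a gene of the proximal limb, scored 289, 851 and 1367. Gli3, an effector of Hedgehog signalling, had a V5 score of 21, the lowest of the list, and Twist1, a gene of limb mesenchyme, one of 43. Tbx4, which acts with Pitx1 in the hindlimb, and Tbx5, its forelimb counterpart, had no promoter peak. Shh, the signal that posterior HOX genes induce in the limb bud, had RNAPOL2 at 1974 and H3K27ac at 1056 and no V5.

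The label of the tumours and the presence of other cells were checked with marker promoters. Of 8 clear cell sarcoma and melanocytic markers, 3 (37.5%, beside 52.2% of all coding genes) had both marks (Mitf, Pmel and Crem). V5 was present at 2 (25%, beside 16.6%), Crem, with the rank 2 score of the V5 list, and Dct. Sox10, Mlana and Tyr had no peak (37.5%, beside 39.9%). Of 9 skeletal muscle markers, 0 had H3K27ac and 1, Tnnt3, had RNAPOL2. H3K27ac was present at 5 of 6 fibroblast, 5 of 6 leukocyte and 3 of 5 endothelial markers, beside 58.6% of all coding genes. RNAPOL2 was present at 2, 1 and 1 of them, beside 53.5%, and V5 at 0 of these 17, beside 16.6%. The part of these cells in the HOX peaks was not tested. The V5 tag is carried by cells with the recombined allele alone, but no tumour without the tag is among these samples, so unspecific signal of the antibody was not measured.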

How the data were processed

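The authors ran ChIP-seq on mouse clear cell sarcomas with antibodies to V5, RNAPOL2 and H3K27ac, with input chromatin as background (4 labelled samples each). Per the submitters' processing notes, BWA 0.7.10-r789, MACS2 2.2.6 and the build mm10 were used. Peaks were called against input, with the broad option for H3K27ac, and denylisted regions were removed. The authors deposited 1 peak list per antibody with a whole-number score of unstated scale. The methods name more samples for V5 and RNAPOL2 than the labels do, and how replicates were combined for the peak lists, as opposed to the averaged signal tracks, is not given in the sources used here. A peak that covers several genes is counted at each.

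Promoter peaks, coverage, joined domains and motifs were computed from these lists with Python 3.11.15, numpy 2.4.6, pandas 2.3.3 and pysam 0.24.0, and drawn with matplotlib 3.10.9. Genes came from GENCODE vM21 and sequence from GRCm38, the assembly of mm10. The counting was tested on simulated intervals. A rank was 1 plus the number of higher scores in the list. Genes were described in the text by cluster and paralog group, and pathway lists by counts beside all protein-coding genes. The HOX genes and gene lists were chosen with earlier results of these data known. Other windows, TSS sets, score cuts and cluster limits were tried. Some genes enter the counts but are not reported here by name.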

Additional observations from a re-analysis of the deposited data

How the results depend on the processing

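Promoter counts and cluster coverage were recomputed under other settings, and of 121 values, 81 stayed within a margin and 40 moved. These values have no sign, so none could be counted as reversed. Comparisons between them did turn, as with RNAPOL2 coverage of Hoxa and Hoxc in the upper 50% of each list. The margin was 1.5 times for a count and the 95% Wilson interval of the first value for a share, which is narrow for coverage and wide for the 24 promoter windows, where the motif share of 20.5% in 1-kb windows lay within the interval of 8.33% (2.32% to 25.8%). With a window of 5 kb, Hoxb genes with both marks rose in number from 1 to 2. With coding TSSs alone, both marks were present at 2 central and 3 Hoxc genes, and with principal TSSs alone, chosen after seeing the data, likewise at 2 and 3, with V5 at 5 genes. In the upper 50% of each list, V5 was present at 4 genes, RNAPOL2 at 8 and both marks at 7, of which 0 were anterior, 3 posterior, 3 in Hoxa, 0 in Hoxb, 3 in Hoxc and 1 in Hoxd. There, Hoxa had 1 V5 peak with 20.1% H3K27ac and 10.1% RNAPOL2 coverage, Hoxc 2 V5 peaks with 25.5% and 6.34%, and Hoxb 0.857% and 0%, while RNAPOL2 covered 1.53% of Hoxd. With the clusters extended by 10 kb, H3K27ac and RNAPOL2 covered 19.1% and 11.6% of Hoxa, 2.37% and 0.304% of Hoxb, 25.5% and 15.1% of Hoxc, and 4.08% and 2.7% of Hoxd. With 100 kb these became 7.85% and 4.76%, 1.23% and 0.158%, 11% and 6.5%, and 2.38% and 1.59%. No peak lay within 100 kb of Hoxa, Hoxb or Hoxc, so the lower shares there come from the added bases, and a shorter list covers less by construction. No paired analysis was possible because the lists carry no values per sample. For the same reason no replicate could be left out, the depth reached by each sample behind a missing peak is not known from the lists, and differences between clusters or genes have no error.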
